A study of Mus musculus with 2 samples.

Results

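Immature medullary thymic epithelial cells (mTEC) are the 354 cells that the authors' deposited cell table names Immature, out of 9185 annotated cells (3.85%) in a single-cell RNA-seq study of mouse thymus. The study asked what the transcription factors Hnf4a and Hnf4g do in mTEC, and it sorted mTEClo cells that stained negative for Pdpn and for CD104, the protein of Itgb4. Hnf4dTEC mice (4 samples, 224 Immature cells) were Foxn1(cre/+), with both Hnf4a copies floxed and both Hnf4g copies null. Hnf4ctrl mice (3 samples, 130 Immature cells) were also Foxn1(cre/+), with 1 floxed Hnf4a copy and 1 null Hnf4g copy. All were C57BL/6, and their age is not given in the sources used here. The controls therefore carried the Cre driver and were heterozygous at both loci, and Foxn1-Cre acts in thymic epithelium at large rather than in mTEC alone. The 7 samples carried antibody hash tags and went through 1 droplet run, so tags and not libraries separate them. The labels do not say that each tag was a separate animal, so p-values measure only the spread between these samples.

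mTEC present peripheral antigens to developing T cells, and the medulla draws thymocytes in from the cortex through chemokines, of which CCL21, a ligand of CCR7, is the best known. Immature mTEC give rise to Aire-expressing cells, and mTEC also take on programmes of peripheral tissues, as in tuft, microfold or keratinocyte-like mimetic cells. In the mouse thymus CCL21 comes mainly from the gene Ccl21a, and Krt5, Krt14 and Trp63 are classical genes of basal epithelium.

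Ccl21a (chr4:42772860-42773993, minus strand, mm10) has near-identical copies, and the reads of a copy can be told apart only at bases that differ. The transcripts of Ccl21a and of Ccl21d (chr4:41903610-41904743, plus strand) are each 870 bases long in GENCODE M21 and differ at 6 positions, an identity of 99.3%. Within the 402 coding bases they differ at 2 positions, T84A and C194T, counted from 1 at the A of the start codon, with the base of Ccl21a first. The windows of 41 bases around both positions are shown because they hold the only coding differences, and the capital marks the differing base.
Ccl21a, window at T84A: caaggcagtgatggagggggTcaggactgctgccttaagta
Ccl21d, window at T84A: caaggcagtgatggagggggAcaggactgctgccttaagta
Ccl21a, window at C194T: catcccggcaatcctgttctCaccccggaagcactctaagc
Ccl21d, window at C194T: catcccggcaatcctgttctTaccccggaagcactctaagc
The last 500 bases, where 3′ libraries take most of their reads, differ at 3 positions. Immature cells held 34706 unique molecule counts (UMIs) of Ccl21a, 326 of Ccl21d, 7 of Ccl21b and 0 of Ccl21c, against 26258, 224, 6 and 0 in all 8831 other annotated cells, taking for each symbol the identifier with the most UMIs. Further identifiers under the symbols Ccl21a and Ccl21b held at most 3 UMIs each. How the counting divided reads between copies is uncertain, so the values of Ccl21a below are those the deposited matrix assigns to that copy.

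The Immature cells held 3175663 UMIs in all, and their sums per sample ran between 298456 and 616712 UMIs over 37 to 68 cells. Their median of 8083 UMIs per cell was the lowest of the 15 annotated classes. Sample medians lay between 7563 and 8809 in Hnf4dTEC and between 7150 and 10145 in Hnf4ctrl, and the other annotated cells of the same samples lay between 11626.5 and 15262. The doublet caller Scrublet marked 10 of the 354 cells, and 3 had a tag other than their own as the strongest. Levels below are UMIs per 1000000 UMIs of the summed cells (CPM), with the mean and SD over the 7 samples. Because the authors' classes were made from these same cells, Immature cells are set against all other annotated cells of the same samples as a description, with no test.

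All 5 marker genes fit the label, and each was highest in Immature cells among the 13 classes that had at least 10 cells in at least 3 samples. A wider list of 20 genes of immature mTEC was less uniform. In all 7 samples 14 of its members were higher and 2 lower, and 4 were neither, with a median log2 ratio of 2.04. Ccl21a stood at 9713, 11446 and 12112 CPM (lowest, median and highest sample) in Immature cells, against 170.02, 209 and 223 CPM in other annotated cells. Its mean was 11009 ± 886 CPM against 203 ± 18.5 CPM, so about 1 in each 100 transcripts of an Immature cell was Ccl21a, and the groups did not overlap. Krt5, a keratin of basal epithelium (chr15:101707070-101712898), stood at 1505, 1754 and 2425 CPM in Immature cells, against 118, 136 and 246 CPM in other annotated cells. Trp63, the basal cell transcription factor (chr16:25683763-25892102), stood at 315, 482 and 675 CPM, against 64.2, 76.6 and 80.7 CPM in other annotated cells.

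Itgb4 and Pdpn deserve a separate word, because the sort removed cells with their proteins on the surface. Itgb4, the integrin subunit of hemidesmosomes (chr11:115974709-116008412), stood at 92.7, 155 and 174 CPM in Immature cells, against 28.6, 32.5 and 36.2 CPM in other annotated cells. Pdpn, a membrane glycoprotein (chr4:143267431-143299564), stood at 35.6, 53.6 and 59.3 CPM, against 2.62, 3.80 and 6.03 CPM in other annotated cells. Both were thus transcribed in the cells that passed a gate meant to leave their proteins out, with no overlap between Immature and other cells. The gap to the next class varied widely between markers. Ccl21a in Immature cells was 9.89-fold above the next class, Transitional cells at 1113 ± 403 CPM, and Pdpn was 3.78-fold above Transitional cells at 13.6 ± 4.24 CPM. Krt5 was 1.81-fold above Secretory cells, and Trp63 was 1.41-fold above Keratinocyte cells. Itgb4 was only 1.17-fold above Microfold cells, whose 129 ± 29.7 CPM lay within the spread of the 151 ± 28.4 CPM of Immature cells.

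**Figure D1:**
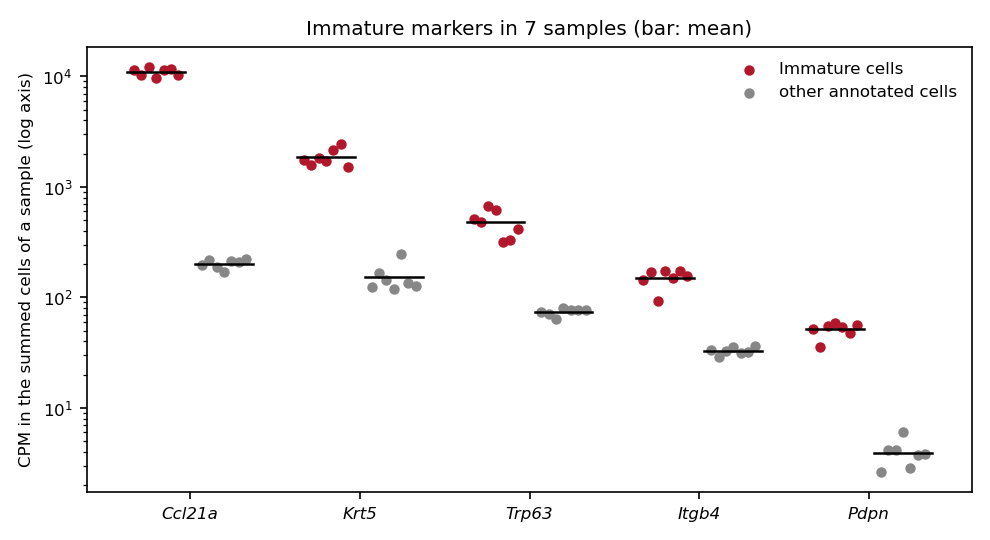
Level of the 5 marker genes in CPM on a log axis, with 1 point per sample for Immature cells and for all other annotated cells of the same 7 samples. The 7 Immature points of each gene lie above all 7 points of the other cells, and Ccl21a has the widest gap, 11009 against 203 CPM on average.

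The marker shares were also taken at equal depth. After each cell was thinned to 2000 UMIs, which left out no Immature cell, Ccl21a was found in 98.6% of Immature cells against 3.11% of Tuft cells, the largest class (100% against 14.9% unthinned). Krt5 was found in 87.0% of thinned Immature cells against 1.41% of Tuft cells, and Trp63 in 53.1% against 4.01%. The gate genes were found in fewer cells, Itgb4 in 24.3% against 4.37% and Pdpn in 10.7% against 0.146%. The median depth before thinning was 8083 UMIs in Immature cells and 12186 UMIs in Tuft cells. Aire, the regulator of peripheral antigen genes, was found in 1.98% of thinned Immature cells and 2.33% of Tuft cells. Whether these counts are background was not tested. The exact 95% binomial interval was 7.71 to 14.4% for Pdpn in Immature cells and 0.0535 to 0.317% in Tuft cells, and such intervals cover counting error only.

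Within the class, Ccl21a was broad rather than split into positive and negative cells. All 354 of 354 cells held at least 1 UMI of it. The median was 101.7 UMIs per 10000 UMIs of a cell, with 5% of cells under 14.5 and 5% over 232. The sample medians were 106, 107, 112 and 88.6 in Hnf4dTEC, and 117, 99.7 and 87.7 in Hnf4ctrl, and the groups overlapped. Outside the class, 327 of 8831 cells exceeded the level that the lowest 5% of Immature cells stayed under, and 93 of them were Transitional cells, 23.8% of that class. Another 55 were Keratinocyte and 54 Aire-adjacent cells, and 19 were Klk-rich cells, 15.2% of their class. Only 28 outside cells exceeded the Immature median, of which 9 were Transitional.

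**Figure D2:**
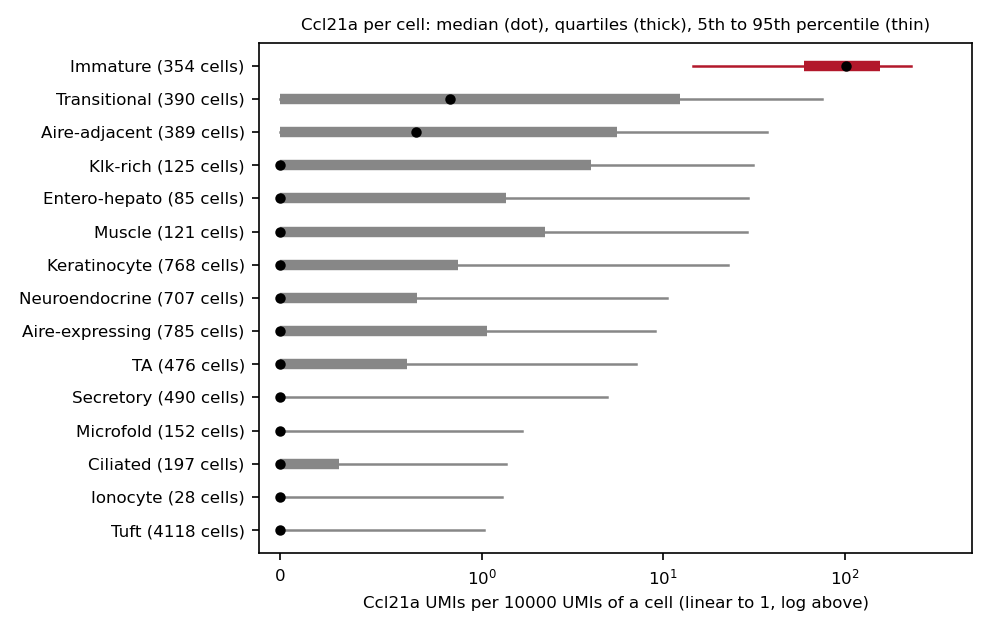
Ccl21a UMIs per 10000 UMIs of each cell, by class on an axis that is linear to 1 and logarithmic above, with a dot at the median, a thick bar over the quartiles and a thin line over the middle 90% of cells. The Immature median is 101.7, while the Transitional median is 0.842 with an upper tail in which 5% of cells pass 74.98.

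The genes that stood highest over the other annotated cells were Tagln, Ccl11, Ccl21a and Acta2. Of 13676 genes measured at 5 CPM or more, 2453 (17.9%) were higher and 4155 (30.4%) lower in Immature cells in all 7 samples, and 165 (1.21%) were at least 4-fold higher and 160 (1.17%) at least 4-fold lower in all 7, on a log2(CPM + 5) scale. Tagln, which encodes the actin-binding protein transgelin (chr9:45929619-45936058), led with 523, 962 and 1290 CPM in Immature cells, against 4.41, 7.64 and 14.04 CPM in other annotated cells, a median log2 ratio of 6.27. Ccl11, the eosinophil chemokine eotaxin (chr11:82057823-82062955), came next with 497, 600.0 and 757 CPM in Immature cells, against 2.53, 4.69 and 14.3 CPM in other annotated cells, a log2 ratio of 5.90. Acta2, smooth muscle alpha-actin (chr19:34241090-34255590), stood at 386, 603 and 896 CPM, against 5.11, 10.5 and 16.2 CPM in other annotated cells, a log2 ratio of 5.21. None of these 3 genes overlapped between the 2 sets of cells in any sample. Ccl11 was concentrated in fewer cells than the others: 145 Immature cells (41.0%) held a UMI of it, and 1 cell held 10.1% of all its UMIs.

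The 30 leading genes also included Scx, a transcription factor of tendon, at a log2 ratio of 4.81, and Boc, a co-receptor for hedgehog ligands, at 4.72. Col6a1 and Col6a2, chains of collagen VI, stood at 4.70 and 4.37, and Mgp, the matrix Gla protein, at 4.63. The chemokine gene Cxcl14 stood at 4.39, and Igfbp4, which binds insulin-like growth factors, at 4.15. Gas1, another hedgehog co-receptor, stood at 4.28, and Sulf1, a sulfatase of heparan sulfate, at 4.13. Lifr, the receptor of leukaemia inhibitory factor, stood at 579, 640.0 and 658 CPM in Immature cells, against 32.9, 36.7 and 42.8 CPM in other annotated cells. The remaining leading genes, from Mir100hg at 4.58 to Htra1, a secreted protease, at 3.72, spanned the same range. All 30 were highest in Immature cells among the 13 classes, 29 of them at least 2-fold above the next class and 11 at least 10-fold. The next class was Transitional for 12 of the 30 and Muscle for 6. The smallest gap was Dpp6, a potassium channel subunit, at 1.97-fold over Ciliated cells, and the widest was Ccl11, at 23.3-fold over Keratinocyte cells. Outside the 13 classes, Dpp6 stood at 544 CPM in Ionocyte cells, measured in 1 sample, against a mean of 516 CPM in Immature cells.

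**Figure D3:**
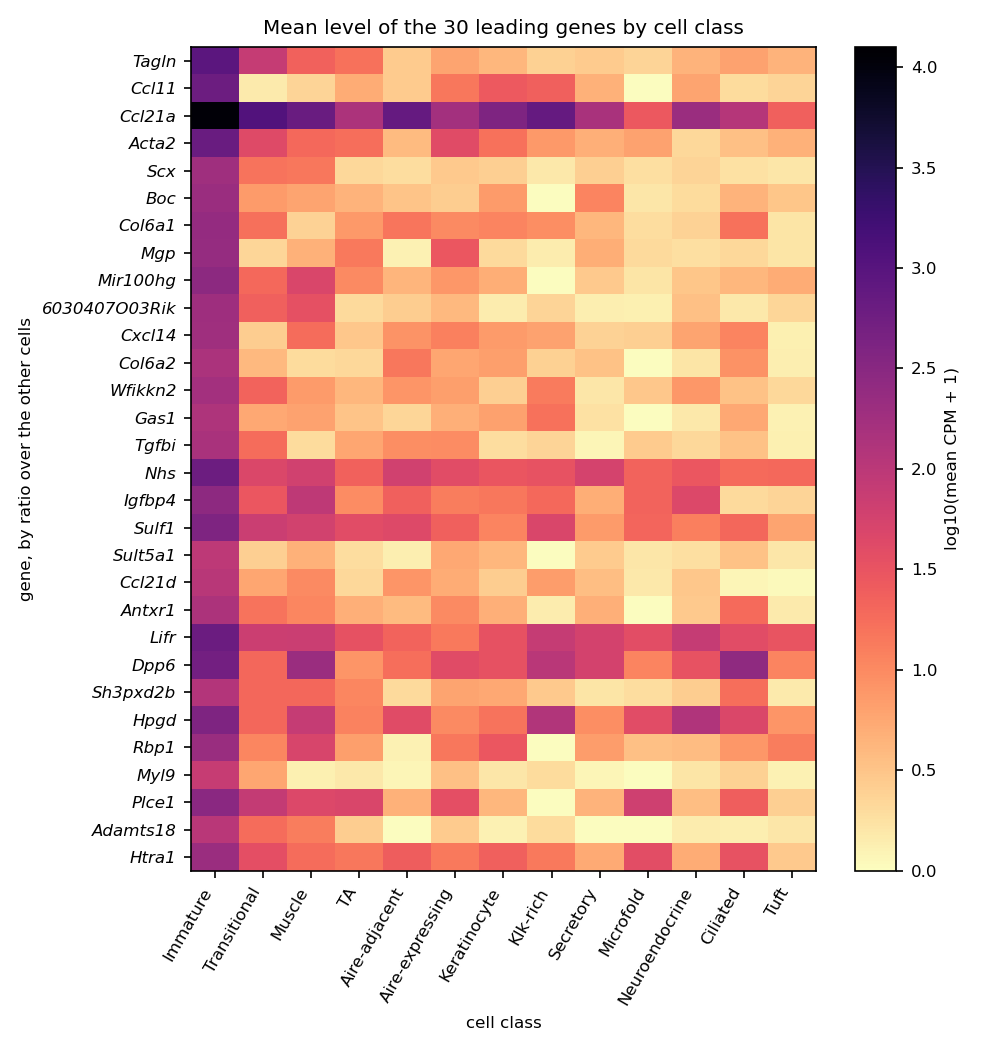
Mean level of the 30 leading genes (down) in the 13 classes with at least 10 cells in at least 3 samples (across), coloured by log10(mean CPM + 1) with Immature cells in the leftmost column. Immature cells hold the highest level of all 30 genes, and Transitional cells are next for 12 of them.

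A list of smooth muscle contractile genes, made after these values were seen, had 15 of its 18 measured members higher in Immature cells in all 7 samples and 1 lower, with a median log2 ratio of 2.51 beside -0.11 for all measured genes. Its summed level was 6911 ± 951 CPM in Immature cells, against 905 ± 63.0 CPM in other annotated cells. Tpm2, a tropomyosin, averaged 1291 ± 275 CPM in Immature cells against 129 ± 41.1 CPM in other annotated cells. Cald1, caldesmon, averaged 1093 ± 175 CPM against 118 ± 23.2 CPM, and Rgs5, a G protein regulator known from pericytes, averaged 885 ± 226 CPM against 154 ± 29.4 CPM. Smtn, smoothelin, went the other way at 6.22 CPM in Immature cells against 21.2 CPM in other annotated cells.

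The contractile genes lay in cells with epithelial transcripts. In 203 Immature cells with at least 5 UMIs of Tagln and Acta2 together, 98.0% held Epcam, 99.0% Krt5 and 100% Ccl21a. In the 78 cells with none, 92.3% held Epcam, 97.4% Krt5 and 100% Ccl21a. High shares are thus a trait of the class, which was made from the transcripts of these cells, and do not mark the 203 cells. Ccl21a stood at 11846 CPM in the 203 cells, at 9819 CPM in the 73 cells with 1 to 4 such UMIs, and at 9203 CPM in the 78 cells with none. Krt14 stood at 1359 CPM in the 203 cells and 669 CPM in the 78 cells with none. Median depth moved with this order, at 8720, 7276 and 6445 UMIs, and its part in the order was not tested. A list of mural cell genes, also made after values were seen, had 5 of 7 measured members higher in all 7 samples and 1 lower. Its summed level was 1168 ± 223 CPM in Immature cells against 230 ± 33.8 CPM in other annotated cells. Its members Rgs5 and Myh11 were abundant in Immature cells, with 2888 and 639 UMIs, and Mcam had 87. Other mural genes were nearly silent, with 1 UMI of Pdgfrb, 1 of Cnn1, and 0 of Cspg4, Abcc9, Kcnj8 and Higd1b over all 354 cells. The share of cells with at least 5 UMIs of Tagln and Acta2 was 70.6, 51.1, 65.2 and 56.9% in Hnf4dTEC and 48.6, 56.1 and 46.2% in Hnf4ctrl, and the groups overlapped.

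Promoters of the list were scanned for the CArG box, the motif bound by serum response factor, on both strands within 250 bases before to 50 after the start in RefSeq (GRCm38.p6). Of the 20 members, 15 had a promoter in that table, Tagln and Myh11 not among them. It was found in 2 of these 15 promoters (13.3%; Cnn2 and Myl9), against 488 of 27025 promoters in all (1.81%). The Myl9 promoter is shown because Myl9, a myosin light chain, was a leading gene at 76.3 CPM in Immature cells against 0.771 CPM in other annotated cells, and because the match, in capitals, starts 161 bases before the transcription start. A match describes the letters in this window and is no evidence of binding.
Myl9, chr2:156775263-156775352, plus strand: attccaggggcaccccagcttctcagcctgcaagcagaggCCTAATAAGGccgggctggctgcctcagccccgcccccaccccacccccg

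Extracellular matrix genes stood with the contractile genes. Of 23 measured members of a collagen and matrix list made after values were seen, 18 were higher in Immature cells in all 7 samples and none was lower in all 7, with a median log2 ratio of 2.46. Their summed level was 2960 ± 196 CPM in Immature cells, against 425 ± 44.0 CPM in other annotated cells. Col4a1, a chain of the basement membrane collagen IV, averaged 361 ± 67.1 CPM against 31.7 ± 8.83 CPM, and Col6a1 averaged 236 ± 29.5 CPM against 4.70 ± 0.794 CPM. Of 6 measured members of the fibroblast list, which shares Col6a1 with the matrix list, 3 were higher and 2 lower in all 7 samples, with a median log2 ratio of 1.54 and a sum of 396 ± 60.4 CPM in Immature cells against 46.5 ± 6.41 CPM in other annotated cells. Its higher members were Col6a1 with 743 UMIs, Fbn1 with 270 and Dcn with 171. The fibrillar collagens of the list were near 0, with 7 UMIs of Col1a1, 0 of Col1a2 and 12 of Col3a1 in the whole class, beside 18 of Pdgfra and 0 of Thy1. Among 24 measured genes of adhesion and basement membrane, 16 were higher and 3 lower in all 7 samples, with a median of 1.08. Itga6, the integrin partner of Itgb4, averaged 586 ± 80.1 CPM in Immature cells against 127 ± 6.79 CPM in other annotated cells. Epcam itself was level, at 949 ± 97.9 CPM in Immature cells and 950 ± 75.9 CPM in other annotated cells.

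Of 4 lists of signalling genes, those of the Notch, growth factor and Wnt pathways had medians above that of all genes. The TNF receptor and NF-kB list had 5 of 25 members higher and 4 lower with a median log2 ratio of -0.10. Over all measured genes 17.9% were higher and 30.4% lower, with a median of -0.11. Of 20 measured Notch pathway genes, 13 were higher and 1 lower in all 7 samples, with a median log2 ratio of 0.92. Maml2, a Notch coactivator, averaged 254 ± 48.0 CPM against 57.6 ± 4.63 CPM, the target Hes1 averaged 222 ± 70.0 CPM against 62.8 ± 7.73 CPM, and the receptor Notch2 averaged 178 ± 40.8 CPM against 50.1 ± 4.84 CPM in other annotated cells. Rbpj, the DNA-binding partner of Notch, did not stand apart, at 105 CPM in Immature cells and 111 CPM in other annotated cells. Of 34 measured growth factor and TGF-beta family genes, 19 were higher and 5 lower, with a median of 1.01. The receptors Fgfr2 and Egfr averaged 389 ± 63.1 and 301 ± 45.6 CPM in Immature cells, against 134 ± 15.7 and 65.3 ± 6.104 CPM in other annotated cells. Of 30 measured Wnt pathway genes, 13 were higher and 2 lower, with a median of 0.56. Sfrp1, a secreted Wnt inhibitor, averaged 198 ± 47.9 CPM against 35.8 ± 8.08 CPM, and the ligand Wnt4 averaged 167 ± 8.97 CPM against 38.5 ± 4.102 CPM in other annotated cells.

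Chemokine genes were mixed: of 16 measured members of the list, which holds Ccl21a but not Ccl11, 7 were higher and 5 lower in all 7 samples. Cxcl10, a ligand of CXCR3, averaged 650 ± 198 CPM in Immature cells against 196 ± 60.4 CPM in other annotated cells. Ccl19, the other CCR7 ligand, averaged 303 ± 134 CPM against 119 ± 38.6 CPM, and it had rank 3 of the 13 classes. Ccl20, a ligand of CCR6, was among the lowest genes, at 1.52 CPM in Immature cells against 176 CPM in other annotated cells.

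Genes of the interferon response were high in Immature cells in both genotypes. Of 22 measured members, 18 were higher and 1 lower in all 7 samples, with a median log2 ratio of 1.48, and their sum was 10023 ± 777 CPM in Immature cells against 2953 ± 112 CPM in other annotated cells. Ifitm3, a membrane protein that restricts virus entry, made up most of this sum at 6224 ± 545 CPM against 1580 ± 137 CPM. Iigp1, an immunity-related GTPase, averaged 496 ± 117 CPM against 47.1 ± 13.7 CPM, and Isg15, a ubiquitin-like modifier, averaged 417 ± 60.8 CPM against 84.8 ± 8.42 CPM. Ifi27 was the member that went the other way, at 123 CPM against 263 CPM. After thinning to 2000 UMIs, Isg15 was found in 45.8% of Immature cells against 10.5% of Tuft cells.

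A pair of GAAA runs with any 2 bases between them, part of the element that interferon-activated factors bind, was searched on both strands of the same promoter windows. It was found in 10 of the 18 promoters available for the 22 members of the interferon list (55.6%), against 1079 of 27025 in all (3.99%). That share describes the genes of the list and not the Immature cells, and a match is no evidence of binding. The promoters of Isg15 and of Ifit3, a tetratricopeptide antiviral gene chosen after values were seen (177 CPM against 11.8 CPM), are shown with matches in capitals. The Isg15 window holds 3 overlapping matches, the nearest 66 bases before the start, and the Ifit3 window holds 2, the nearest 122 bases before the start.
Isg15, chr4:156200835-156200936, minus strand: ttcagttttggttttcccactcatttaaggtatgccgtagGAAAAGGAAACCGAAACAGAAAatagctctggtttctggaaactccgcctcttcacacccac
Ifit3, chr19:34583333-34583456, plus strand: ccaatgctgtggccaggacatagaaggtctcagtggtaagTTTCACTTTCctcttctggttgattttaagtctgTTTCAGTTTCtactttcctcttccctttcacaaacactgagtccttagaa

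**Figure D4:**
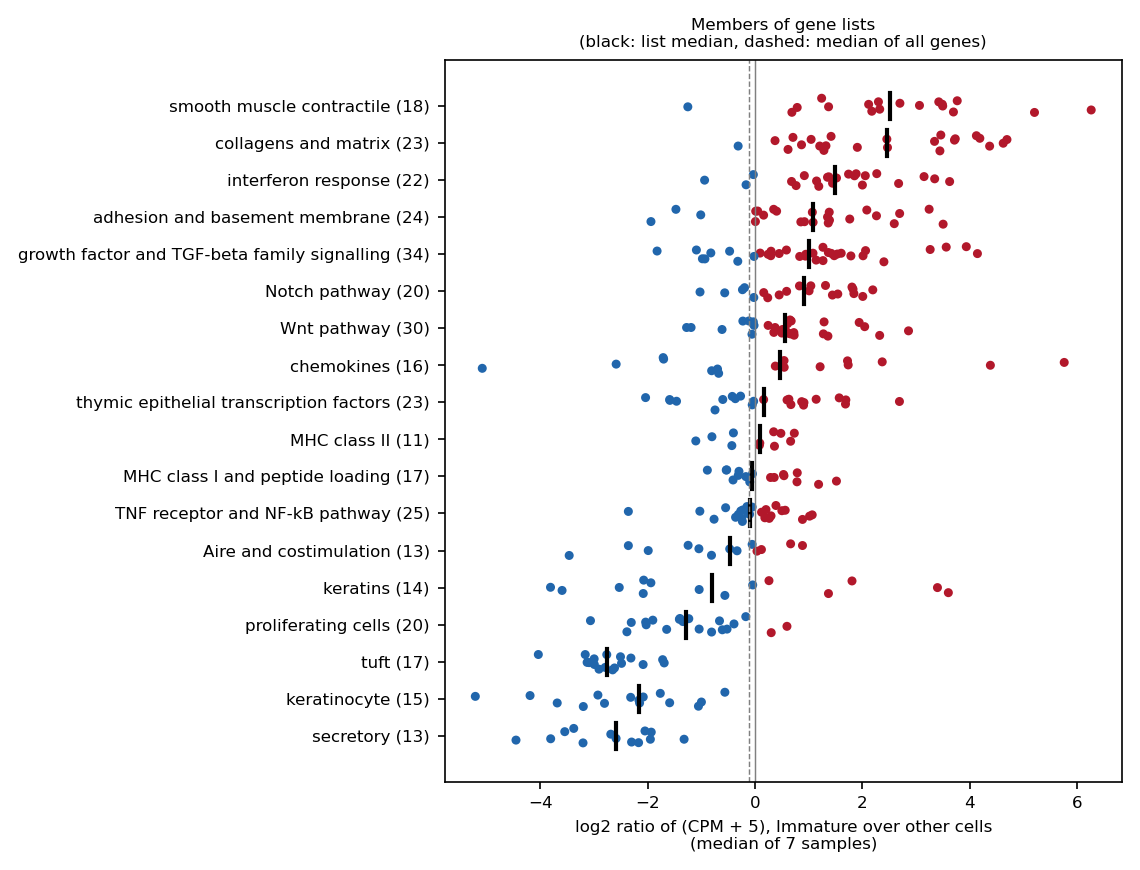
Log2 ratio of Immature over other annotated cells (CPM + 5) for the measured members of each gene list, 1 point per gene at its median over 7 samples, with a black mark at the list median and a dashed line at the median of all genes. Contractile, matrix and interferon lists have medians of 2.51, 2.46 and 1.48, and the tuft list has all 17 genes below 0.

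Keratins divided by type rather than moving as a group, with 4 of 14 measured higher and 8 lower in all 7 samples. Krt17, a keratin of basal and stressed epithelium, averaged 3593 ± 584 CPM in Immature cells against 907 ± 149 CPM in other annotated cells, and Krt14, the partner of Krt5, averaged 1131 ± 101 CPM against 110 ± 11.8 CPM. The simple epithelial keratins were level or lower, with Krt18 at 1449 ± 217 CPM against 1512 ± 179 CPM and Krt8 at 1126 ± 182 CPM against 1705 ± 151 CPM. Krt19 stood at 47.0 ± 36.6 CPM in Immature cells against 447 ± 86.9 CPM in other annotated cells. Of 23 measured transcription factors of thymic epithelium, 9 were higher and 7 lower, beside 17.9% and 30.4% of all measured genes. Meis1, a homeobox factor, averaged 309 ± 59.8 CPM in Immature cells against 94.3 ± 9.27 CPM in other annotated cells.

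Genes of antigen presentation by mature mTEC were not shared evenly. Aire stood at 12.99 CPM in Immature cells against 162 CPM in other annotated cells, and of 13 measured genes of its list 1 was higher and 6 were lower in all 7 samples. Tnfrsf11a, the receptor RANK through which mTEC receive maturation signals, was the higher one, at 283 ± 46.7 CPM against 145 ± 24.9 CPM. Fezf2, another regulator of peripheral antigen genes, stood at 150 ± 25.7 CPM against 206 ± 35.2 CPM. MHC class II genes were close to level, with a median log2 ratio of 0.09 over 11 genes and Cd74, the invariant chain, at 4714 ± 720 CPM in Immature cells and 4551 ± 1210 CPM in other annotated cells. Against Tuft cells alone Cd74 was not level, found after thinning in 98.9% of Immature and 30.8% of Tuft cells. MHC class I and peptide loading genes had a median of -0.05 over 17 genes. Cell cycle genes were lower than in the pool of other cells, 14 of 20 in all 7 samples and 1 higher. Hmgb2, a chromatin protein of dividing cells, stood at 90.1 CPM against 528 CPM. That pool includes 476 transit-amplifying (TA) cells. Against Tuft cells Mki67 was not lower, found after thinning in 0.847% of Immature cells (3 cells) and 0.219% of Tuft cells (9 cells). The targeted genes were sparse in the class: Hnf4a had 0 UMIs, and Foxn1, the driver of the Cre, averaged 34.2 CPM and had rank 6 of the 13 classes.

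Mimetic programmes were low in Immature cells. All 17 tuft genes were lower in all 7 samples (median log2 ratio -2.76), as were 13 of 15 keratinocyte genes (-2.16), 12 of 13 ciliated (-1.58), 11 of 13 secretory (-2.59), 11 of 12 neuroendocrine (-1.78), 10 of 12 microfold (-1.53), 9 of 12 entero-hepato (-1.66) and 7 of 9 muscle genes (-1.28). The 15 lowest genes were led by Klk1, a kallikrein protease, at 3.61 CPM in Immature cells against 285 CPM in other annotated cells. Spink5, a protease inhibitor of skin, followed at 7.25 CPM against 470 CPM, and Reg3g, an antimicrobial lectin of the gut, stood at 33.1 CPM against 1077 CPM. The other 12 included Tff1, Scgb1a1, Iapp, Gp2 and Fabp4, with log2 ratios between -5.09 and -4.31. Such contrasts depend on which mimetic cells make up the rest of the samples.

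Of 16 measured genes of the liver list, 2 were higher and 9 lower in all 7 samples (median log2 ratio -1.36), and of 10 measured genes of cortical thymic epithelium, 3 were higher and 1 lower (0.18). A few genes with high levels in Immature cells were chosen after their values were seen. Apoe, apolipoprotein E, stood at 713 CPM in Immature cells against 55.6 CPM in other annotated cells, and C3, a complement component, at 408 ± 133 CPM against 94.7 ± 24.7 CPM. Ctsl, the protease cathepsin L of cortical thymic epithelium, averaged 933 ± 262 CPM against 126 ± 24.1 CPM, and Il7, the thymocyte growth factor, averaged 218 ± 20.2 CPM against 50.8 ± 7.86 CPM. Immune and endothelial genes were scarce, with 26 UMIs of Ptprc, 2 of Cd3e, 0 of Rag1, 0 of Cdh5 and 13 of Pecam1 in the class. Of 19 measured dissociation stress genes, 4 were higher and 7 lower in all 7 samples, near the 17.9% and 30.4% of all measured genes. The 32 Immature cells with at least 5 of the tuft genes held 73.6% of the UMIs of that list. Picking cells by these same genes raises that share. The 32 cells were deeper, with a median of 12461 UMIs against 7783.5 in the other Immature cells. Scrublet marked 9 of the 32, and their Ccl21a stood at 7513 CPM against 11486 CPM.

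Across 5692 genes, with class sums thinned to equal depth, the profile of Immature cells was closest in rank order to Muscle (Spearman's rho 0.688) and Transitional cells (0.680), and farthest from Microfold cells (0.490). These values describe correlations across genes, which are not independent replicates.

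The hash antibody against H2-Kb gave a measure that the classes did not use. Immature cells carried a median of 1.05, 1.09, 1.23 and 1.02 times the own-tag UMIs of other annotated cells in the Hnf4dTEC samples, and 1.26, 1.15 and 1.14 times in the Hnf4ctrl samples. The mean ratio was 1.13-fold and above 1 in 7 of 7 samples (exact two-sided sign-flip test, p = 0.0156, the smallest that 7 samples allow). Per RNA UMI of the cell, the mean ratio was 1.80-fold, also in 7 of 7 samples (exact two-sided sign-flip test, p = 0.0156), with Immature cells the shallowest class. Many of the other annotated cells were Tuft cells, whose tag signal was low at 0.846 of the sample median. Against other annotated cells without Tuft cells, a comparison added after seeing the data, Immature cells were at 0.961-fold, higher in 3 of 7 samples (exact sign-flip test, p = 0.25). Among the 13 classes Immature cells had rank 9 in tag signal, at 1.13 ± 0.0879 of the sample median.

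The next comparisons ask whether loss of Hnf4a and Hnf4g altered the Immature cells. Their share of annotated cells was 4.12, 3.27, 3.09 and 4.73% in Hnf4dTEC and 4.62, 4.48 and 3.29% in Hnf4ctrl. The means were 3.80% ± 0.765 and 4.13% ± 0.729 (SD, n = 4 and n = 3), and the groups overlapped. The difference of -0.329 percentage points had an exact two-sided permutation p of 0.629 over 35 splits, of which the smallest possible is 0.0286. In edgeR's fit over all 15 classes the log2 fold change was -0.11 (95% interval -0.69 to 0.48, adjusted p = 0.971), so changes of up to about that interval cannot be set aside. The sort on Pdpn and CD104 removes most cells with those proteins, so these shares are shares of the gate and not of the thymus.

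No gene passed the genotype test within Immature cells. On simulated counts this test recovered 42.5% of 2-fold changes and 100% of 4-fold changes, so 2-fold changes can be missed. Of 7120 genes tested by edgeR's quasi-likelihood test on sums per sample, 0 were higher in Hnf4dTEC (0.0%) and 0 lower (0.0%) at an adjusted p under 0.05. At an unadjusted p under 0.05 there were 139 higher and 136 lower, DESeq2 also called 0, and no list had a called member. Among abundant genes, Ccl21a had a log2 fold change of -0.06 (SE 0.15), and Krt5 -0.27 (SE 0.17). Krt5 stood at 1754, 1594, 1818 and 1713 CPM in Hnf4dTEC and at 2141, 2425 and 1505 CPM in Hnf4ctrl, and the groups overlapped. The contractile genes Tagln and Acta2 had log2 fold changes of 0.38 (SE 0.25) and 0.32 (SE 0.21), also with overlap between groups.

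The genes with the smallest p did not pass and are given as values. Timp2, an inhibitor of metalloproteinases, stood at 115, 107, 128.3 and 83.7 CPM in Hnf4dTEC and at 43.6, 19.8 and 60.3 CPM in Hnf4ctrl (adjusted p = 0.588). Sox11, a transcription factor of progenitor cells, stood at 56.8, 38.3, 80.8 and 55.8 CPM in Hnf4dTEC and at 10.1, 25.4 and 21.9 CPM in Hnf4ctrl (adjusted p = 0.588). Plk2, a stress-responsive kinase, stood at 25.9, 27.4, 11.9 and 10.5 CPM in Hnf4dTEC and at 50.3, 45.2 and 58.5 CPM in Hnf4ctrl (adjusted p = 0.588). In these 3 genes no sample of one genotype reached the range of the other. These genes were picked for the smallest p, a choice that favours such separation. The share of all tested genes without such overlap was not counted. All 3 passed edgeR's test when genes with low counts were kept in the fit, with adjusted p of 0.000607, 0.00517 and 0.0104.

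Vcam1, an adhesion molecule for lymphocytes, stood at 191, 222, 233 and 195 CPM in Hnf4dTEC and at 419, 494 and 241 CPM in Hnf4ctrl, with the lowest control close to the highest Hnf4dTEC sample (adjusted p = 0.588). Trp63 stood at 512, 482, 675 and 612 CPM in Hnf4dTEC and at 315, 333 and 419 CPM in Hnf4ctrl, a log2 fold change of 0.64 (edgeR, unadjusted p = 0.00204, adjusted p = 0.999). Kcnh1 and Sgsm2 had log2 fold changes of 1.14 and 1.32, and Gm11290, Lpo and Serpinb1a of -1.41, -0.95 and -0.80, with adjusted p of 0.588 or more in edgeR's test. Without the filter on low counts, adjusted p in edgeR's test was 0.00433 for Vcam1, 0.0163 for Kcnh1, 0.000123 for Gm11290, 0.0226 for Lpo and 0.0158 for Serpinb1a, and these passed. Vcam1 also passed without Hnf4ctrl replicate 3 (edgeR, adjusted p = 0.0483).

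**Figure D5:**
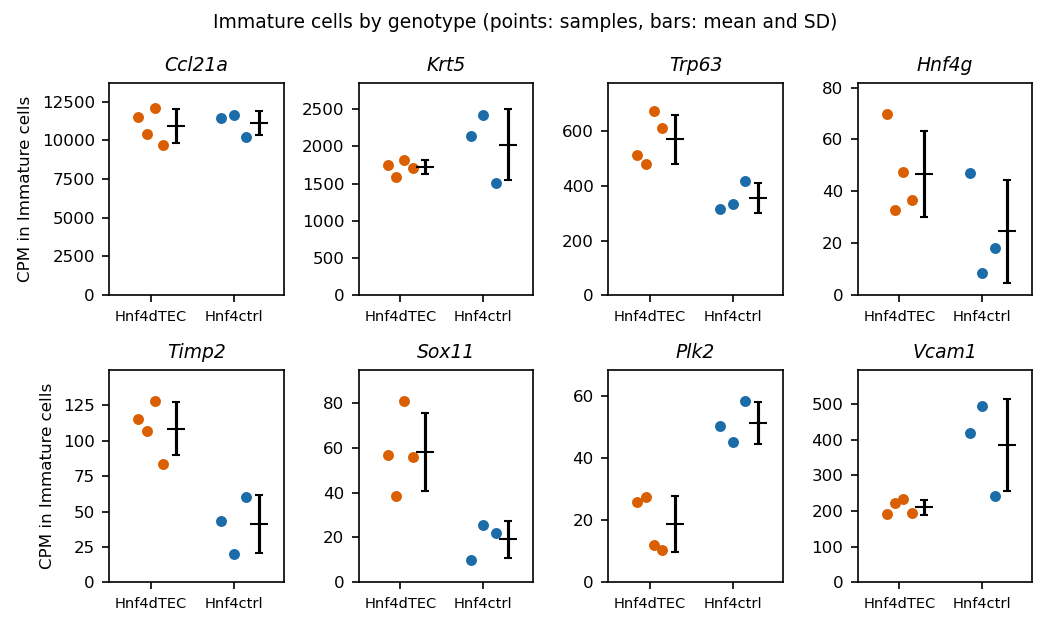
CPM in Immature cells per sample, Hnf4dTEC left of Hnf4ctrl, for Ccl21a, Krt5, Trp63, Hnf4g, Timp2, Sox11, Plk2 and Vcam1, with 1 point per sample and bars for the group mean and SD. Trp63, Timp2, Sox11, Plk2 and Vcam1 show no overlap between the groups. Timp2, Sox11, Plk2 and Vcam1 were picked for the smallest p, a choice that favours such separation. No gene passed the test at an adjusted p under 0.05. The share of all tested genes without overlap was not counted.

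Hnf4g, the germline-null gene (chr3:3508030-3658052), checks the labels only in part, since 3′ reads can lie outside a deleted stretch. It stood at 69.7, 32.9, 47.5 and 36.6 CPM in Immature cells of Hnf4dTEC and at 46.9, 8.47 and 18.3 CPM in those of Hnf4ctrl, on 96 and 27 UMIs, and the groups overlapped (log2 fold change 1.02, SE 0.41, adjusted p = 0.999). In other annotated cells it stood at 83.9 ± 4.70 CPM in Hnf4dTEC and 121 ± 3.46 CPM in Hnf4ctrl. Transcripts of the null gene were thus counted in Hnf4dTEC in both sets of cells.

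The last test asked whether the genotype difference itself was not the same in Immature cells as in other annotated cells, with the sample as a block (edgeR, 17519 genes). Those other cells are a pool whose make-up moved with genotype. In edgeR's share fit, Entero-hepato cells were scarcer in Hnf4dTEC, at -5.25 on the log2 scale (adjusted p = 6.16e-05), and no other class passed. How far shifts in the pool came from this was not tested, apart from the fits without Entero-hepato cells. The interaction test called 15 genes upward (0.0856%), meaning a higher Hnf4dTEC to Hnf4ctrl ratio in Immature cells, and 24 downward (0.137%). Few Immature cells lay behind most of these calls: 21 of the 39 genes had under 100 UMIs in the class, and in 31 at least 10% of the UMIs came from 1 cell. The chemokine Ccl8 (-4.70, adjusted p = 7.3e-07) was at 9.73, 0, 23.8 and 3.49 CPM in Hnf4dTEC and at 13.4, 2.82 and 762 CPM in Hnf4ctrl, with 94.3% of its UMIs in 1 cell, and it lost its call without Hnf4ctrl replicate 3 (adjusted p = 1). A single cell also held 96.4% of the Immature UMIs of Reg1, 89.8% of those of Pyy, 84.6% of 4930434J06Rik, 78.6% of Otos and 64.4% of Spink1. The other genes with the largest values were Gm47782, Lgals4, Lypd2, Gp2, Lyz1, Aqp3 and Fabp4 upward, and Bex4, Arhgap15, Ovol3, Kcnd2, Lsamp and Rgs21 downward, with interaction log2 values between -4.85 and 9.63.

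Of these 39 genes, 7 rested on at least 100 UMIs with under 10% in 1 cell: Ms4a10, Cyp2f2, Hnf4g, Igfbp4, Ly6d, Dpp6 and Gprin3. Igfbp4 was level in Immature cells, at 277 ± 23.1 CPM in Hnf4dTEC and 275 ± 48.1 CPM in Hnf4ctrl, while other annotated cells stood at 9.31 ± 0.936 CPM in Hnf4dTEC and 18.1 ± 2.93 CPM in Hnf4ctrl (interaction 0.98, adjusted p = 0.0193). Sample by sample the genotypes overlapped in Immature cells and did not in the other cells. Hnf4g had an interaction of 1.57 (SE 0.35, adjusted p = 0.0180), and its values above ran in opposite directions in the 2 sets of cells. Dpp6 stood at 610.5 ± 252 CPM in Hnf4dTEC and 390.4 ± 142 CPM in Hnf4ctrl within Immature cells (interaction 0.92, adjusted p = 0.0409). Ms4a10 stood at 41.6 ± 19.2 CPM in Hnf4dTEC and 27.0 ± 6.28 CPM in Hnf4ctrl within Immature cells, and at 1.37 ± 0.367 CPM and 5.89 ± 3.73 CPM in other annotated cells of Hnf4dTEC and of Hnf4ctrl (interaction 2.65, adjusted p = 0.00509). With Entero-hepato cells left out of the other cells, adjusted p was 0.253 for Igfbp4, 0.0712 for Hnf4g, 0.123 for Dpp6 and 1 for Ms4a10. Without Hnf4ctrl replicate 3, adjusted p was 0.228 for Igfbp4, 0.114 for Hnf4g, 0.643 for Dpp6 and 0.271 for Ms4a10. Hnf4g also lost its call without Hnf4ctrl replicate 2 (adjusted p = 0.179) and without Hnf4dTEC replicate 1 (0.157), and Igfbp4 without Hnf4dTEC replicate 1 (0.135). Dpp6 lost its call as well without Hnf4ctrl replicate 2 (0.134), Hnf4dTEC replicate 1 (0.0555) or Hnf4dTEC replicate 3 (0.232), and with DESeq2 size factors (0.0592).

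Ly6d, a surface protein of keratinocytes and lymphoid cells, stood at 213 CPM in Hnf4dTEC and 393 CPM in Hnf4ctrl within Immature cells, and at 629 CPM in Hnf4dTEC and 617 CPM in Hnf4ctrl in other annotated cells (interaction -0.96, adjusted p = 0.0387). It lost its call without Hnf4ctrl replicate 2 (adjusted p = 0.814), Hnf4dTEC replicate 3 (0.139) or Hnf4dTEC replicate 4 (0.0543). Cyp2f2, a cytochrome P450 of airway cells, was nearer level in Immature cells, at 150.5 CPM in Hnf4dTEC and 169.6 CPM in Hnf4ctrl, than in other annotated cells, at 153 CPM in Hnf4dTEC and 87.9 CPM in Hnf4ctrl (adjusted p = 0.0176). Gprin3 likewise stood at 63.7 CPM in Hnf4dTEC and 63.5 CPM in Hnf4ctrl within Immature cells, and at 9.18 CPM in Hnf4dTEC and 22.7 CPM in Hnf4ctrl in other annotated cells (adjusted p = 0.0414). Cyp2f2 and Gprin3 were chosen after their values were seen. Their calls were not followed with samples or Entero-hepato cells left out, so their stability is not known. Plk2, whose genotype difference in Immature cells did not pass alone, had an interaction of -1.60 (adjusted p = 0.0143), with other annotated cells at 197 ± 38.5 CPM in Hnf4dTEC and 200.01 ± 79.2 CPM in Hnf4ctrl. In Immature cells 25% of its UMIs came from 1 cell, and it lost its call without Hnf4ctrl replicate 3 (adjusted p = 0.71).

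Ccl11 was picked as the leading gene with the clearest difference by genotype. It stood at 600.0, 525.7, 508 and 497 CPM in Immature cells of Hnf4dTEC and at 694, 607 and 757 CPM in those of Hnf4ctrl. The groups did not overlap, a trait whose share over all tested genes was not counted. The log2 fold change in Immature cells was -0.40 (SE 0.15, adjusted p = 0.999) and did not pass, while the interaction of -1.24 did (adjusted p = 0.0145). In other annotated cells Ccl11 stood at 7.40 ± 4.76 CPM in Hnf4dTEC and 3.87 ± 1.17 CPM in Hnf4ctrl. The interaction lost its call without Hnf4dTEC replicate 4 (adjusted p = 0.274) and without Hnf4ctrl replicate 3 (adjusted p = 0.459).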

How the data were processed

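The deposited matrix holds whole-number UMI counts of genes and hash tags for 18089 barcodes, made by the authors with 10x 3′ v3.1 chemistry, per the labels' protocols; class names and tags come from the authors' deposited cell table. Per the submitters' processing notes the tools were Seurat 4.0.2 and Cell Ranger 6.1.0 on mm10, although the matrix header gives Cell Ranger 7.0.0. Only the 9185 annotated cells were used, and 8904 other barcodes were not used. How the authors treated doublets is not given in the sources used here; Scrublet (scanpy 1.11.5) marks were used only to describe cells and as an alternative.

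Counts were summed per sample for Immature and for other annotated cells and scaled to CPM. Ratios are of CPM + 5, over genes with at least 5 CPM in either set. Genotype and interaction were fitted on the count sums with edgeR 4.0.16 (quasi-likelihood, TMM, Benjamini-Hochberg over all genes tested), with DESeq2 1.42.0 as an alternative. On simulated counts the genotype fit recovered 42.5% of 181 genes changed 2-fold and 100% of 183 changed 4-fold, with 8 and 14 false calls. The interaction fit recovered 29.5% of 200 genes changed 2-fold and 91.5% of 200 changed 4-fold, with 9 and 19 false calls. Single values were compared by exact permutation. No 2 samples of a group agreed within sampling noise. The members and gene lists were chosen with earlier results of these data known. Genes named are the markers and targeted genes, the 30 highest and 15 lowest ratios, the largest or lowest-p genes of each test, and the most abundant members of each list; others are said to be chosen after values were seen, namely Smtn, Krt19, Ifit3, Ifi27 and those so marked. Some genes are not reported here.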

Additional observations from a re-analysis of the deposited data

Results flagged for a closer look

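Of 55 groups of 7 samples checked for a sample far from the rest, 3 held one, and chance alone gives about 1 in 20 groups. The log2 ratio of Lifr was 3.61 in Hnf4ctrl replicate 2, below 3.91 to 4.12 in the other samples. Spink1 stood at -0.00539 in Hnf4dTEC replicate 3, against -5.89 to -3.64 in the others, and 1 cell held 64.4% of its UMIs. Fabp4 stood at -1.98 in Hnf4dTEC replicate 2, against -5.36 to -3.97 in the others. The 39 genes whose genotype difference was not the same in Immature as in other annotated cells, by the interaction test, were picked out for that difference.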

How the results depend on the processing

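The labels' replicate numbers did not pair the samples (correlations of -0.0171, -0.00171 and -0.00121); with a replicate block the genotype test called 0 genes, the log2 difference in share was -0.23, and Ccl21a turned to 0.00304. With no filter on low counts the genotype test called 54 genes, among them 8 of the genes named for the smallest p, and leaving out a sample in turn gave 0 to 2. Leaving out a sample moved the log2 fold change of Ccl21a between -0.11 and 0.00667, of Pdpn between -0.17 and 0.026, of Foxn1 between -0.0672 and 0.62, and the interaction of Otos between -10.28 and 4.66. The interaction count of 39 became 42 to 72 when a sample was left out (72 without Hnf4ctrl replicate 1, 65 without Hnf4dTEC replicate 4, 60 without Hnf4dTEC replicate 2), 56 without the filter, 31 with DESeq2 size factors and 32 without Entero-hepato cells. The 165 genes at least 4-fold higher became 69 with a pseudocount of 20 CPM, 238 with 1 CPM, 114 with an unweighted mean of the other classes and 167 to 183 when a sample was left out. The tag signal turned to -0.0571 on the log2 scale without Tuft cells, and leaving out a sample kept it at 0.15 to 0.20. The log2 difference in share ran between -0.26 and -0.02 when a sample was left out. The cause of these moves was not tested. The filter on low counts left 7120 genes in the genotype test, and genes with fewer counts in Immature cells were not judged by it.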
